A study of Mus musculus with 7 samples.

Results

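The locus of Sema7a and Cyp11a1, neighbouring genes on mouse chromosome 9, held 4 estrogen receptor beta (ERβ) binding sites of 4869 found across the genome of the mouse ovary by the same rule. The 2 genes, of 21755 protein-coding genes in the annotation, were chosen on the ChIP-seq values described here. All folds over input below are therefore descriptions of these libraries, and no test was made of them. The locus was taken as both gene bodies, the sequence between them and 50 kb on either side (mm10, chr9:57890112-58077023, 186.9 kb). A site was a stretch in which 200-bp windows had a mean signal over 4 times that of the inputs in at least 2 ChIP libraries, and each site is named by its window of highest mean fold.

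The study asked where endogenous ERβ binds chromatin in the ovary. Chromatin of ovaries from female C57BL/6J mice with intact ERβ was immunoprecipitated with the mouse monoclonal antibody PPZ0506 in 3 replicates (ERβ ChIP), and 2 inputs of the same strain and tissue served as controls. The inputs were taken as such from their titles, although their labels also name the antibody. Per the methods of the study, each ChIP replicate pooled 14 ovaries from 7 mice aged 4 to 16 weeks, and the estrous stages were not separated, so a value is an average over animals and over all cell types of the ovary. In such bulk samples, fewer cells with a bound site and weaker binding per cell cannot be told apart. ChIP samples of knockout ovaries were not analysed here, and the signal at the locus was therefore set against inputs alone.

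Sema7a encodes semaphorin 7A, a semaphorin that is anchored to the cell surface by a glycolipid and acts on cells carrying integrins or plexin C1. Cyp11a1 encodes the mitochondrial side-chain cleavage enzyme, which turns cholesterol into pregnenolone, the first enzymatic step of steroid hormone synthesis, and it is a classic gene of theca, granulosa and luteal cells. ERβ, the main estrogen receptor of granulosa cells, binds DNA as a dimer at the estrogen response element (ERE), in which the half-sites GGTCA and TGACC are separated by any 3 bases. The NR5A receptors SF-1 and LRH-1, known regulators of steroidogenic genes, bind as monomers to an extended half-site, CAAGGTCA.

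In GENCODE, Sema7a spans chr9:57940112-57962865 and Cyp11a1 spans chr9:58006411-58027023, both on the plus strand, with 43.5 kb between them. The 4 sites are called here by where they lie. The main upstream site (chr9:57938841-57939040) was 1.17 kb before the Sema7a start and the minor upstream site (chr9:57937791-57937990) was 2.22 kb before it. Both were in intergenic sequence between Ubl7 and Sema7a. The downstream site (chr9:57966161-57966360) was in intergenic sequence 3.40 kb past the end of Sema7a. The Cyp11a1 intron site (chr9:58011651-58011850) lay in intron 1 of the Cyp11a1 transcript with the earliest GENCODE start. It was 5.34 kb past that start and 2.92 kb before the start of the main, 9-exon transcript. In RefSeq it lay in intron 2 of a 10-exon transcript that starts earlier (chr9:57998024), and the study names intron 2. No site lay in an exon or overlapped an annotated start.

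The sequences of the sites are shown because they differed in the elements that they held. They are from the plus strand of GRCm38, and capitals mark the EREs and half-sites of the main upstream site, shown with the 100 bp that follow its window, the ERE and AP-1 motif of the downstream site, and the ERE and NR5A motif of the Cyp11a1 intron site.
Main upstream site, chr9:57938841-57939140: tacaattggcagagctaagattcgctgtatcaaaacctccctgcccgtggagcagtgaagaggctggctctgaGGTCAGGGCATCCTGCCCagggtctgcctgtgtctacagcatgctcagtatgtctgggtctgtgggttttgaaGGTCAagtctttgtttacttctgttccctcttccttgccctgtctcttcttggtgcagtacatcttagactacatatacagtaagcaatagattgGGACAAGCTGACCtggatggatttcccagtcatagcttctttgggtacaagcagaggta
Downstream site, chr9:57966161-57966360: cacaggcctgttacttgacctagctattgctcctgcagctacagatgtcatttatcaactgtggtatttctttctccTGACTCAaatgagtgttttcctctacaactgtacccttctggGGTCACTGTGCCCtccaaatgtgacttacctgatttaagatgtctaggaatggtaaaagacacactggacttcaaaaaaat
Cyp11a1 intron site, chr9:58011651-58011850: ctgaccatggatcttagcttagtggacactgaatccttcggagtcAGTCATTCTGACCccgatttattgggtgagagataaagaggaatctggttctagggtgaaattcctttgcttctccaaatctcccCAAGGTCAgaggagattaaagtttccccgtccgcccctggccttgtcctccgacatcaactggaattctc
Minor upstream site, chr9:57937791-57937990, with no capitals because it held none of these elements: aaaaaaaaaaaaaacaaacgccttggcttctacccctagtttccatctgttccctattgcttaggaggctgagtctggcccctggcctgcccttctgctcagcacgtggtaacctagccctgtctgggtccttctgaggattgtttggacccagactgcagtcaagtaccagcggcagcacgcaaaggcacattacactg

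The main upstream site near Sema7a carried the highest signal of the locus in every ChIP library. Its mean signal was 29.9, 31.9 and 33.5 in ChIP replicates 1, 2 and 3, against 0.594 and 0.620 in Input replicates 1 and 2. The ChIP libraries lay close together and far above both inputs. The fold over the mean of the inputs was 49.4, 52.6 and 55.2 (mean 52.4 ± 2.94, SD, n = 3), the second highest mean fold of all 4869 sites, and only 3 sites of the genome had a mean fold over 50. The stretch of windows that passed the rule was 700 bp long, and 1.83% of all sites were as wide.

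The minor upstream site lay 1.05 kb before the main one and stayed a separate stretch from it at a 2-fold threshold. Its signal was 6.27, 6.27 and 4.03 in ChIP replicates 1, 2 and 3 and 0.698 and 0.810 in the inputs. ChIP replicate 3, which was highest at the main upstream site, was lowest here. The folds were 8.32, 8.32 and 5.35 (mean 7.33 ± 1.71, SD, n = 3), which ranked 1841 in the genome. Of all sites, 3.12% had another site as near as these 2 had each other.

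The downstream site had a signal of 2.66, 3.84 and 3.74 in the 3 ChIP libraries and of 0.503 and 0.620 in the inputs. All ChIP libraries exceeded the inputs, with ChIP replicate 1 the lowest. The folds were 4.74, 6.85 and 6.66 (mean 6.08 ± 1.17, SD, n = 3), at rank 2518 and close to the median fold of 6.22 over all sites.

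The Cyp11a1 intron site was the weakest of the 4. Its signal was 2.27 in ChIP replicate 1, 4.63 in ChIP replicate 2 and 4.50 in ChIP replicate 3, while the inputs were at 0.730 and 0.679. The ChIP libraries were above both inputs, but only 2 of them passed the 4-fold threshold. The folds were 3.22, 6.57 and 6.39 (mean 5.39 ± 1.88, SD, n = 3), at rank 3019. The site was no longer called without ChIP replicate 2 (mean fold 4.80) or without ChIP replicate 3 (4.89), since both remaining libraries then had to pass and ChIP replicate 1 did not. Without ChIP replicate 1 it was called, with a mean fold of 6.50.

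**Figure D1:**
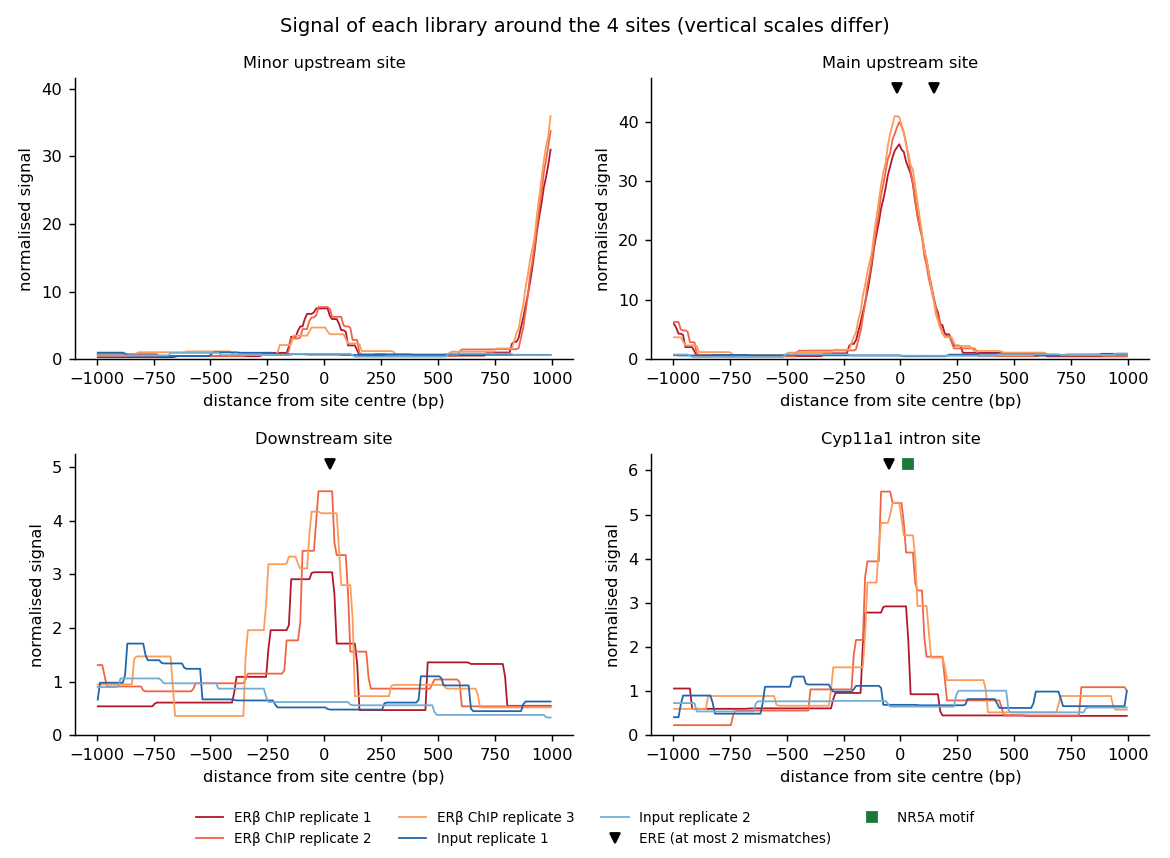
Normalised signal of the 3 ERβ ChIP libraries and 2 inputs (vertical axes, with a scale of its own for each site) against the distance from the site centre in bp, with triangles at EREs with at most 2 mismatches and a square at the NR5A motif. No input was above 1.12 at its highest point in a site, the main upstream site reached 36.2, 39.9 and 40.9 in the ChIP libraries, and ChIP replicate 1 was at 2.92 at its highest point in the Cyp11a1 intron site, where the others reached 5.52 and 5.27.

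In order of mean fold, the main upstream site stood 7.15 times above the minor upstream site, and the ranges of their folds did not overlap. The minor upstream site was 1.20 times the downstream site, and the downstream site 1.13 times the Cyp11a1 intron site. The ranges of the folds overlapped between all pairs of the 3 weaker sites. Compared within each library, the downstream site was 1.47, 1.04 and 1.04 times the Cyp11a1 intron site in ChIP replicates 1, 2 and 3, higher in all 3. ChIP replicate 1 gave the minor upstream site 2.58 times the fold of the Cyp11a1 intron site, whereas ChIP replicate 3 gave it 0.837 times that fold.

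The low value of ChIP replicate 1 at Cyp11a1 was set beside all other sites. The log2 ratio of its fold to the mean fold of ChIP replicates 2 and 3 was -1.01 at the Cyp11a1 intron site, and 9.16% of all sites had a ratio as low. Over all sites the median ratio was -0.31. It was -0.13 at the main upstream site and -0.51 at the downstream site, but 0.28 at the minor upstream site, so the library was not lower throughout the locus. The track names of ChIP replicate 1 and Input replicate 1 lack a prefix that the other 3 libraries share. When each ChIP library was set over the input of its own kind of track name, the mean fold was 52.0 at the main upstream site and 5.51 at the Cyp11a1 intron site. Input replicate 1 was the higher input at the Cyp11a1 intron site (0.730 against 0.679). The fold of ChIP replicate 1 alone was therefore lower there in that setting. The part of the difference in track names in the low value was not tested.

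**Figure D2:**
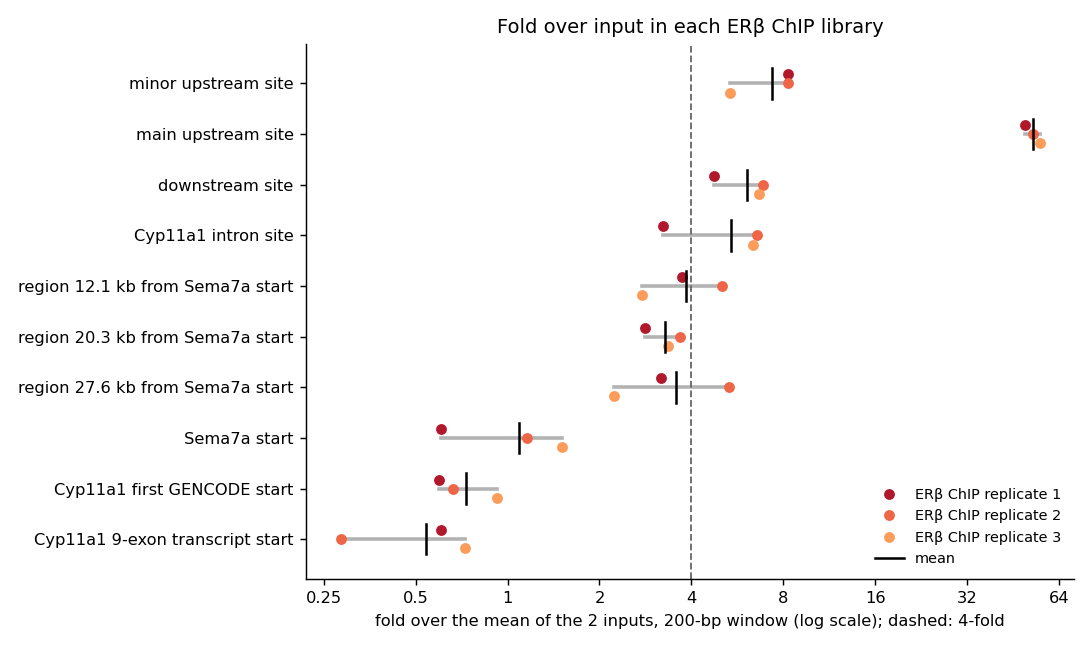
Fold over the mean of the 2 inputs in 200-bp windows (horizontal, log scale) in each ERβ ChIP library, for the 4 sites, the 3 regions just under the threshold and 3 gene starts. Points are libraries, vertical bars their mean and grey lines their range, and the dashed line is the 4-fold threshold. The main upstream site stands apart at 49.4 to 55.2, and the starts of both genes lie between 0.285 and 1.50.

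The rule used the second highest of the 3 folds at each window. This value was 6.39 at the Cyp11a1 intron site, the lowest inside the threshold. Just outside it were regions at chr9:57952071-57952270, in intron 1 of Sema7a (second highest fold 3.74), at chr9:57960351-57960550, in intron 11 of Sema7a (3.34), and at chr9:57967591-57967790, 4.83 kb past the end of the gene (3.18). In the first of them, the folds were 3.74, 5.05 and 2.75 in ChIP replicates 1, 2 and 3. Without Input replicate 1, all 3 of these regions passed and the locus held 7 sites. With each ChIP library over the input of its own kind of track name, the locus held 6 sites. The intron 11 region and the region past the gene then passed. All 3 regions lie within or just past Sema7a, and the Cyp11a1 body still held the intron site alone.

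Over the locus, 0.675% of 18671 windows passed the rule, against 0.0441% of all windows in the genome. The locus held 21.4 sites per Mb, and the genome held 1.90. The locus had been chosen on these values, so nothing is read from this difference. In the same windows, Input replicate 1 was at most 2.40 times Input replicate 2, and the reverse ratio was at most 2.80, both under the threshold.

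Outside the 4 called stretches, ChIP signal across the locus was close to or under that of the inputs. Relative to the mean of the inputs, ChIP replicates 1, 2 and 3 were at 0.831, 0.917 and 1.01 over the Sema7a body, and at 0.693, 0.780 and 0.909 over the sequence between the genes. Over the Cyp11a1 body they were at 0.633, 0.790 and 0.971 with its site left out. ChIP replicate 1 was the lowest of the 3 libraries in each of these intervals, but not in the 50 kb before Sema7a, where the ratios were 0.898, 0.878 and 0.962 with the upstream sites left out. The 4 stretches covered 1.08% of the bases and held 14.1%, 13.9% and 12.6% of the locus signal of ChIP replicates 1, 2 and 3, compared with 1.34% and 1.33% in the inputs. The main upstream site alone held 10.1%, 9.42% and 8.91% of it.

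**Figure D3:**
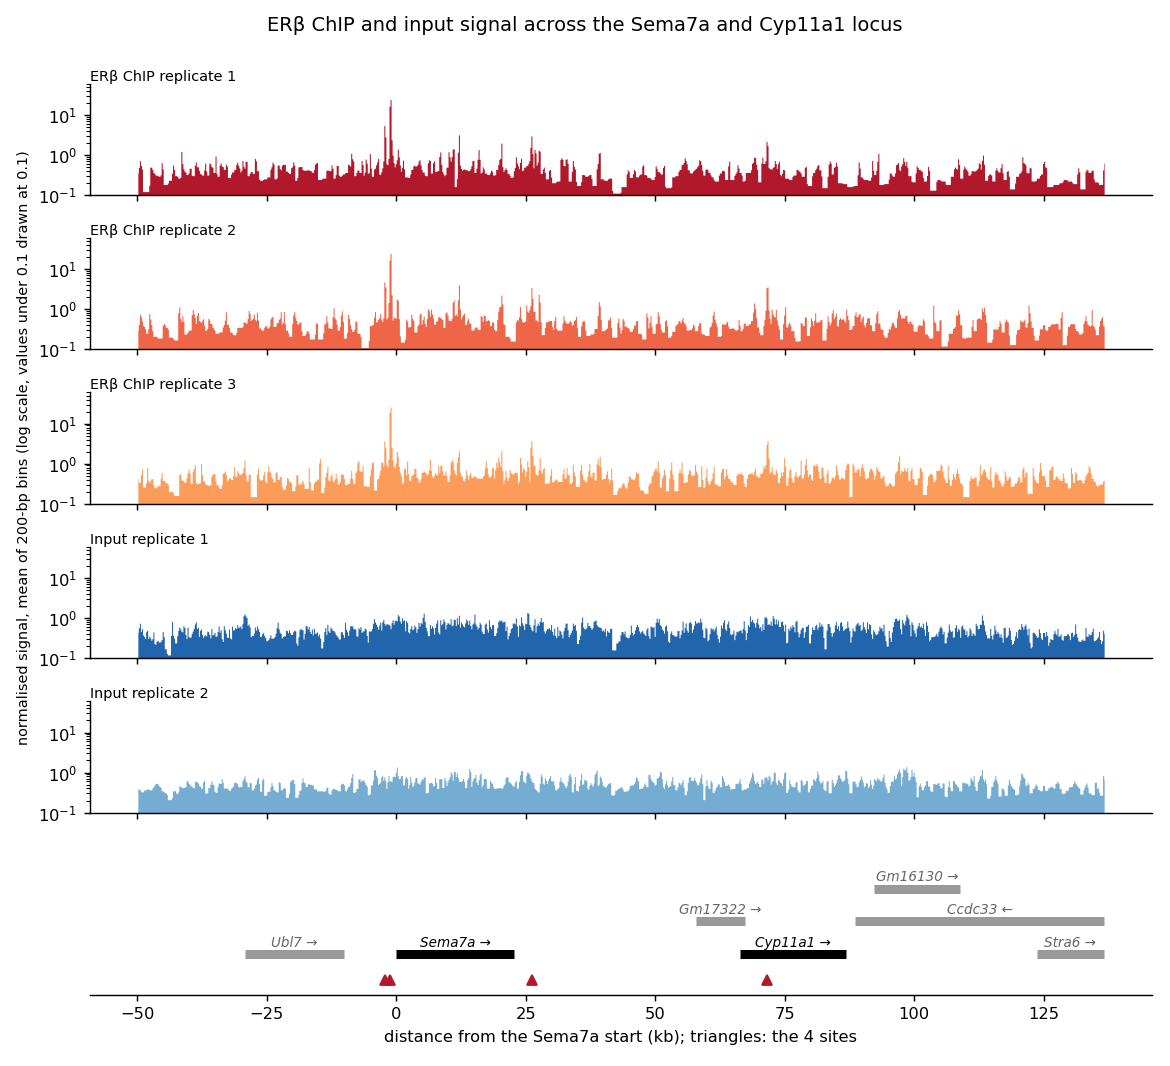
Normalised signal in bins of 200 bp (vertical, log scale) against the distance from the Sema7a start in kb, for each ERβ ChIP library and input, with gene bodies and the 4 sites (triangles) underneath. The 2 sites before the Sema7a start, the downstream site and the Cyp11a1 intron site rise in the ChIP libraries, while neither input rises at them.

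No site was called at the starts of the genes themselves. At the Sema7a start, the 200 bp around it had folds of 0.605, 1.16 and 1.50 in ChIP replicates 1, 2 and 3. At the start of the 9-exon Cyp11a1 transcript they were 0.605, 0.285 and 0.727, and at the earliest GENCODE start of the gene they were 0.595, 0.664 and 0.926. Among 15 annotated starts in the locus, which also included those of Ubl7 and of the noncoding genes Gm17322 and Gm16130, the mean fold went from 0.476 to 1.09 and no library was above 1.58. In RefSeq, the promoters of Sema7a and of both Cyp11a1 starts (250 bp before to 50 bp after) held no exact match to CAAGGTCA. Such a match was in 1.56% of 32851 promoters, and NR5A elements with mismatches were not counted. An ERE with at most 2 mismatches was present in the promoter of the second Cyp11a1 start, as in 11.1% of all promoters, and its folds were 0.619, 0.729 and 1.30.

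The main upstream site combined an imperfect ERE with an added half-site. The best ERE in its 200-bp window, GGGCATCCTGCCC at chr9:57938919-57938931, departed from the consensus at 2 of 10 fixed bases (T3G and A11C, with positions counted from 1 at the first base of GGTCA). A half-site GGTCA stood directly before it, with 0 bp between them. In ChIP replicates 1 and 2, the highest point of the signal lay 9.0 and 11 bp after the middle of this ERE. In ChIP replicate 3, it lay 7.0 bp before that middle, at the last base of the half-site. A further half-site, as part of AAGGTCA, followed 53 bp after the ERE, and a FOXO motif (TGTTTAC) 66 bp after it. An ERE with 1 mismatch (T3A), GGACAAGCTGACC at chr9:57939082-57939094, was outside this window but in the same called stretch, under the flank of the peak, where the fold was 21.5, 20.8 and 21.8.

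At the Cyp11a1 intron site, an ERE and an NR5A motif lay in the same 200-bp window. The ERE, AGTCATTCTGACC at chr9:58011696-58011708, had 1 mismatch (G1A). The NR5A motif CAAGGTCA at chr9:58011781-58011788 followed after a gap of 72 bp, and a GATA motif (AGATAA) was between them, 17 bp from the ERE. In ChIP replicates 1 and 3, the highest signal was 27 and 29 bp after the middle of the ERE. In ChIP replicate 2, the highest signal was 16 bp before the middle of the ERE. These positions are the middles of the segments of highest signal. In ChIP replicate 1, that segment included the ERE, the GATA motif (chr9:58011726-58011731) and part of the NR5A motif. In ChIP replicate 2, it included the ERE but not the GATA motif. In ChIP replicate 3, it included the GATA motif and the end of the ERE. The tracks give means over segments, of which 3 to 5 covered this window in a ChIP library, against 18 to 21 at the main upstream site, so the position is less exact here.

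The downstream site held an ERE with 1 mismatch (A11C), GGTCACTGTGCCC at chr9:57966280-57966292. An AP-1 motif (TGANTCA) was 35 bp before it. The highest signal was 32, 22 and 68 bp before the middle of the ERE in ChIP replicates 1, 2 and 3, on the AP-1 side. In ChIP replicates 1 and 2, the segment of highest signal included both elements. In ChIP replicate 3, it included part of the AP-1 motif but not the ERE. Only 3 or 4 segments covered this window in a ChIP library, so the position is less exact here too. The minor upstream site held no ERE with at most 2 mismatches, no half-site and none of the NR5A, GATA, AP-1 and FOXO motifs. Its best match to the ERE had 3 mismatches.

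Of the 4 sites, then, 3 held an ERE with at most 2 mismatches, 1 held an NR5A motif and none held a perfect ERE. Across all sites of the genome 67.9% held an ERE with at most 2 mismatches, compared with 6.68% of all 200-bp windows. A perfect ERE was in only 6.33% of sites and 0.0175% of windows. An NR5A motif, searched on both strands, was in 11.6% of sites and 1.09% of windows. The half-site GGTCA, which is also part of the ERE and of the NR5A motif, was in 84.8% of sites and 26.5% of windows, GATA in 20.0% and 13.3%, AP-1 in 8.95% and 5.93%, and FOXO in 4.76% and 2.98%. With 4 sites, no difference from these shares was tested.

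Most EREs of the locus were far below the threshold. It held 15 EREs with at most 1 mismatch, of which 3 lay in the called stretches, those of the main upstream site, the downstream site and the Cyp11a1 intron site. The 200 bp around the other 12 had mean folds from 0.604 to 1.95, with a median of 0.971. The lowest belonged to the only perfect ERE, GGTCAATCTGACC at chr9:58075092-58075104, where the bodies of Ccdc33 and of Stra6, the cell surface receptor for retinol-binding protein, overlap, 60.4 kb from the start of the 9-exon Cyp11a1 transcript. Its folds were 0.470, 0.576 and 0.765 in the 3 ChIP libraries. Allowing 2 mismatches gave 101 EREs in the locus, 5 of them in the called stretches, and mean folds of at most 2.79 at the others.

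The same held for NR5A motifs. The locus held 22 of them, and only the one in the Cyp11a1 intron site was in a called stretch, with folds of 2.89, 6.09 and 6.18 in the 200 bp around it. The other 21 had mean folds from 0.543 to 1.79. A total of 4 others lay in the Cyp11a1 body, with mean folds between 0.543 and 1.19.

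**Figure D4:**
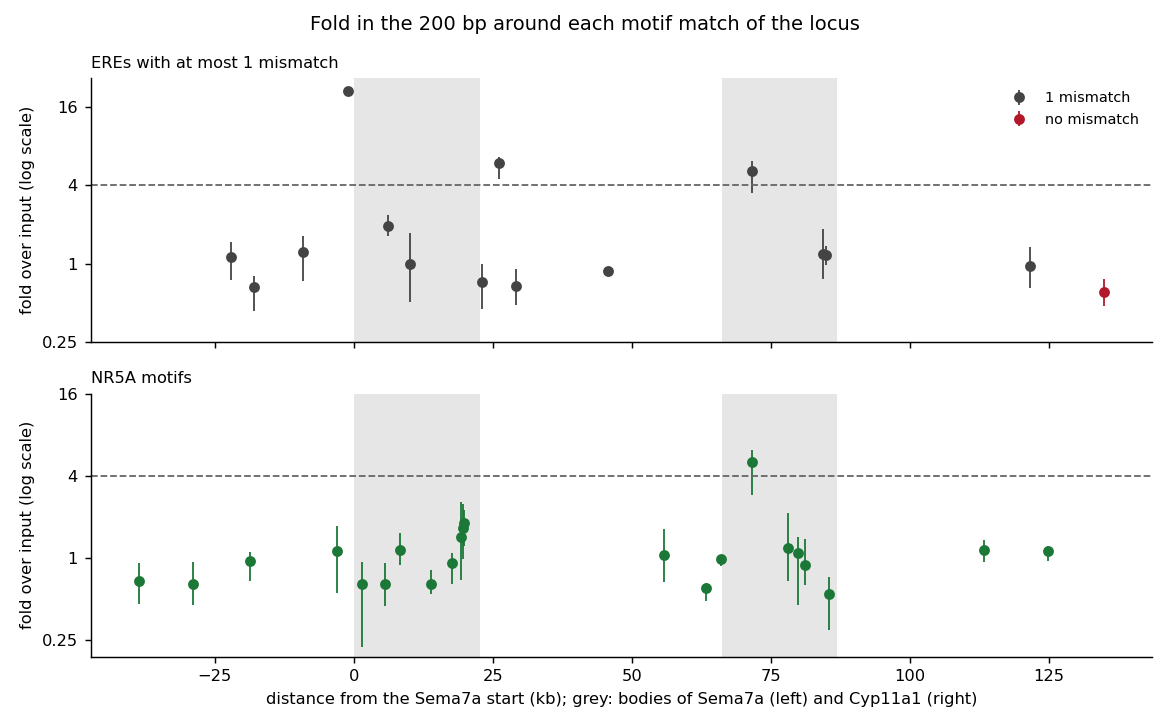
Mean fold over input (vertical, log scale) in the 200 bp around each ERE with at most 1 mismatch (top) and each NR5A motif (bottom), against the distance from the Sema7a start in kb. Bars span the lowest to the highest ChIP library, grey bands are the bodies of Sema7a and Cyp11a1, and the dashed line is the 4-fold threshold. Of the EREs 3 are above the line and the perfect one, far right, is at 0.604, while 1 NR5A motif is above it.

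The Cyp11a1 intron site was also covered by an amplicon that the study designed for ChIP-qPCR, whose primers are shown because they fix the position of that assay. The forward primer cagcctgaccatggatcttag and the reverse primer ccctagaaccagattcctctttatc each matched once in the locus and span chr9:58011647-58011751. Of these 105 bp, 101 were inside the site, and they included the ERE but not the NR5A motif. The ChIP-seq folds over the amplicon were 3.86, 6.97 and 6.56 in ChIP replicates 1, 2 and 3.

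Assigned to the nearest start of a protein-coding transcript, 3 of the sites belonged to Sema7a and 1 to Cyp11a1. Counted within 50 kb of the gene body, Sema7a had 4 sites, a number that 1.20% of protein-coding genes reached, and Cyp11a1 had 2, the intron site and the downstream site, which 8.64% of genes reached. The downstream and intron sites were thus within reach of both genes. A fold as high as that beside Sema7a was within this distance of 10 genes, or 0.0460%. At least 1 site was within it for 27.5% of all protein-coding genes.

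The sites elsewhere whose folds in the 3 ChIP libraries were most like those of the main upstream site, by Euclidean distance of log2 folds, were nearest to the starts of Rybp, which encodes a Polycomb-associated protein, Fdft1, which encodes squalene synthase, and Lyrm9. Their mean folds were 51.3, 47.3 and 47.7, and each held an ERE. For the Cyp11a1 intron site they were near Actbl2, Itpkb and Vdac2, with mean folds of 5.43, 5.31 and 5.58. None of the latter held an NR5A motif, and 2 held an ERE.

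**Figure D5:**
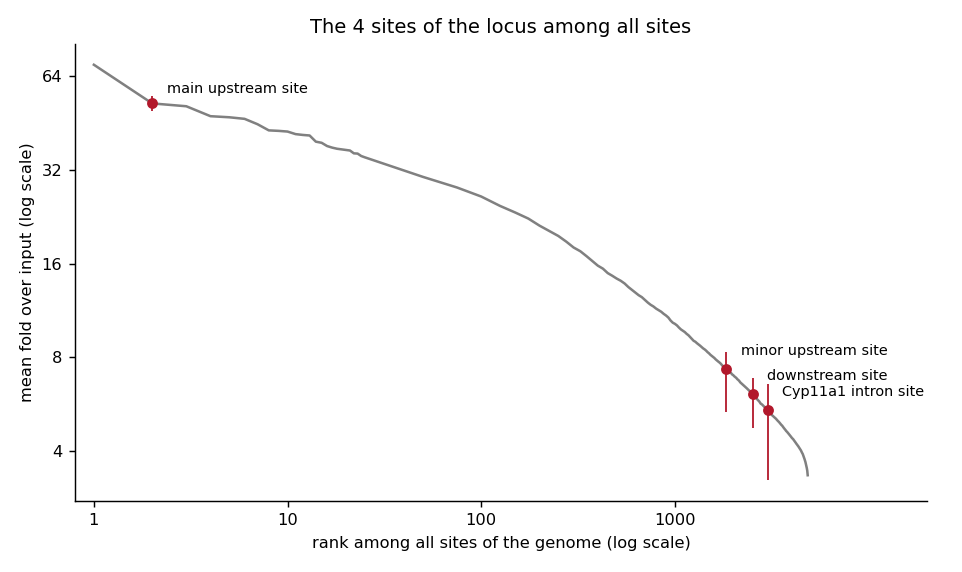
Mean fold over input (vertical, log scale) of all sites in the genome, in order of rank (horizontal, log scale), with the 4 sites of the locus as points and bars from their lowest to their highest ChIP library. The main upstream site ranks 2, and the others rank between 1841 and 3019.

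Genes that act with the 2 members were counted in the same way, a site in the gene body or within 50 kb, against 27.5% of all protein-coding genes. Of 14 genes of cholesterol transport and steroid synthesis, 8 had a site. These were Scarb1, the receptor for high-density lipoprotein, Fdx1 and Fdxr, which pass electrons to the Cyp11a1 enzyme, Hsd3b1, whose enzyme acts on the pregnenolone that Cyp11a1 makes, and the later enzymes Cyp17a1, Cyp19a1, Hsd17b1 and Hsd17b7. The highest folds were those of sites counted for Hsd3b1 (22.0, 26.4 and 29.6 in ChIP replicates 1, 2 and 3), Scarb1 (12.2, 15.5 and 13.1) and Fdx1 (9.97, 13.1 and 11.3). For each of these 3 genes every ChIP library was above the values of the Cyp11a1 intron site. The sites counted for Hsd3b1 and Cyp17a1 were over 10 kb from the gene bodies and nearest to the starts of other genes. The site counted for Fdx1 was also over 10 kb from its body, but nearest to its start. That of Hsd17b7 was within 10 kb, but nearest to the start of another gene. No site was found for Star, which delivers cholesterol to Cyp11a1, nor for Stard3, Tspo, Por, Hsd3b6 and Srd5a1.

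Of the genes for the NR5A receptors, Nr5a1 had sites, with folds of 23.3, 28.2 and 32.8 at the highest one, and Nr5a2 and the repressor Nr0b1 had none within this distance. By nearest protein-coding start, 5 sites belonged to Nr5a2 and 0 to Nr0b1. Of the partners of semaphorin 7A, the plexin gene Plxnc1 had 1 site, with folds of 10.3, 6.44 and 10.1, and the integrin genes Itga1 and Itgb1 had none. In all, 10 of the 20 listed genes had a site. No expression was measured in these samples, so nothing here bears on the RNA of Sema7a or Cyp11a1.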

How the data were processed

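Per the labels and the methods of the study, the authors sequenced ChIP and input DNA of mouse ovary, aligned reads with STAR to mm10 (GRCm38) without spliced alignment, kept uniquely mapped reads and used HOMER; versions are not given in the sources used here. The deposited tracks, 1 per library and not pooled, hold normalised signal (coverage) as means over segments of unequal length. The authors scaled them to a common total: signal times length summed to 928 to 948 M in each library, and the genome mean was 0.362 to 0.370. Depth cannot be read from such values, so no counting interval is given, and replicates alone set the precision. The study itself reports a range of aligned reads per ChIP sample. The median segment was 269 bp in Input replicate 1 and 481 to 519 bp in the other libraries.

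Here, mean signal was computed in 200-bp windows at 10-bp steps over 19 autosomes and chromosome X with Python 3.11.15 and NumPy 2.4.6. Each ChIP library was divided by the mean of the 2 inputs, with their genome mean (0.368) as a floor, and windows over 4-fold in at least 2 libraries were joined into sites where they overlapped or touched. Genes were from GENCODE vM21 and RefSeq on the same assembly, and sequences from RefSeq GRCm38.p6. EREs were matched with at most 2 mismatches in 10 fixed bases, other motifs exactly on both strands. Groups came from the sample titles. Nothing says more of the replicates than that each pooled its own animals. The calls were tested on simulated data. The members, the gene lists and the rule for named genes were chosen with earlier results of these data known. The rule named both members, the genes that overlap the locus, the listed genes by whether they had a site with folds for the 4 highest, and the 3 sites most like each member's strongest site; folds at Plxnc1 were added after they had been seen. The alternatives were other windows, floors, inputs, thresholds, motifs and distances, and leaving out each library.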

Additional observations from a re-analysis of the deposited data

How the results depend on the processing

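Of 50 alternatives, 40 left their result within the spread between libraries or, for counts, within 1.5 times. Among these 40 are settings in which the Cyp11a1 intron site was no longer called. Leaving out 1 library at a time gave 3 to 7 sites in the locus, a fold of 51.0 to 53.9 at the main upstream site and of 4.80 to 6.50 at the Cyp11a1 intron site. The lowest count came without ChIP replicate 2 or 3, when the Cyp11a1 intron site was lost, and the highest without Input replicate 1. A 2-fold threshold gave 11 sites and an 8-fold threshold 2, both before the Sema7a start. The fold at the main upstream site was 59.7 in windows of 100 bp, 35.6 in windows of 400 bp and 45.1 with 0.1 added to all signals in place of the floor. In the same settings the mean fold at the Cyp11a1 intron site was 6.43, 3.93 and 4.85, and the site was still called. No site held an ERE without mismatch (0 sites), and 6.33% of all sites in the genome held one. An NR5A motif was in 2 sites when searched as AAGGTCA, the main upstream site being the second, and in 0 as TCAAGGTCA. Across the genome, AAGGTCA was in 23.7% of sites and 3.73% of windows, and TCAAGGTCA in 3.49% and 0.421%. With an 8-fold threshold, 6 listed genes had a site. The share of all protein-coding genes was not computed at that threshold, and the 27.5% given above is for 4-fold. With each replicate number as a block (ChIP replicate 1 over Input replicate 1, ChIP replicate 2 over Input replicate 2, ChIP replicate 3 left out), the locus held 3 sites and the folds were 51.0 and 4.98. The Cyp11a1 intron site was lost there, because both libraries had to pass. The numbers were not shown to pair the samples: the differences between numbers 1 and 2 in ChIP and in input correlated at 0.0379 over 921 tiles of the locus.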
